A study of Mus musculus with 2 samples.

Results

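The histone genes measured here were the probe sets whose array annotation gives exactly 1 gene symbol and whose symbol names a histone H1, H2A, H2B, H3 or H4 gene in current or older nomenclature. This rule found 36 of the 45101 probe sets on the array, and they named 25 genes of the 18193 that had a probe set with 1 symbol. The RNA was from livers of athymic BALB/c nude mice at day 0 or day 3 of regrowth following a 70% partial hepatectomy, the surgical removal of that share of the organ. The submitters' labels call day 0 the control and day 3 active regeneration, both with partial hepatectomy, and there was 1 array for each day. The sources used here state neither the mice's age and sex nor how many animals stand behind each RNA, and no sham operation was analysed here. With 1 array per day there was no spread between samples, no test between days was possible, and animal, operation and day cannot be told apart.

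Histones are the proteins on which DNA is wound into nucleosomes, with H2A, H2B, H3 and H4 in the core and H1 on the linker DNA between cores. Replication-dependent histone genes lie in clusters, are transcribed mainly in S phase, and give messenger RNAs that end in a stem-loop in place of a poly(A) tail. Replacement histones come from scattered genes with polyadenylated messenger RNAs and are made throughout the cell cycle, and germline histones are largely restricted to testis or oocyte. The labels' protocol made biotinylated cRNA from 5 µg of total RNA with a kit that primes on poly(A) tails. For the replication-dependent genes the array therefore reads mainly transcripts that carry a tail, and the bulk of stem-loop histone RNA was not measured. In adult liver most hepatocytes are quiescent, and removal of liver lobes makes many of them replicate their DNA.

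By these definitions 10 of the 25 genes were replication-dependent (15 probe sets), 7 were replacement histones (11 probe sets) and 8 were germline histones (10 probe sets). Of the replication-dependent genes, 6 are on chromosome 13, 3 on chromosome 3 and 1 on chromosome 11, the places of the known histone clusters. Values are deposited MAS5 signals, a linear intensity scale. Signals under a floor of 68.3, the higher of both array medians, were set to the floor, probe sets under it on both arrays were dropped, and the brightest remaining probe set, by its mean over both arrays, stood for a gene. Of the 25 genes, 14 passed, namely 7 of 10 replication-dependent, 6 of 7 replacement and 1 of 8 germline genes. All ratios are day 3 over day 0, and a gene was called higher or lower where its signal differed by at least 2-fold.

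Among probe sets above the floor that name 1 histone gene, the 3 genes with the largest differences were replacement histones. H2ax, H1f10 and H2az1 were 8.40-fold, 4.79-fold and 2.60-fold higher at day 3, while H2az2, H2aj and H3f3a differed by under 1.2-fold on the probe sets that stood for them. The replication-dependent genes were mixed: H2aw was 2.03-fold higher, H2ac19 was 2.11-fold lower, and the other 5 were under 2-fold. Outside these counts, a probe set shared by 10 replication-dependent H2A genes was 8.58-fold higher, a larger ratio than that of H2ax. The other shared sets of cluster genes above the floor were under 2-fold. Over all genes analysed, 12.9% were at least 2-fold higher and 5.62% at least 2-fold lower. Against this, 3 of 6 replacement and 1 of 7 replication-dependent genes were higher, and 0 of 6 and 1 of 7 were lower. The median log2 ratio was 0.75 for replacement genes and 0.26 for replication-dependent genes, beside 0.08 for all 12634 genes. Of all genes past 2-fold, 69.6% were higher, against 58.4% after quantile normalisation and 86.3% with scaling to the hybridisation spikes. The order of the class medians turned under a 25th percentile floor (0.11 for replacement and 0.20 for replication-dependent genes) and with no floor and 16 added (0.11 and 0.18). It also turned with the class of H2ax, whose gene can give a stem-loop and a polyadenylated transcript: counted as replication-dependent, a choice tried after seeing the data, it left 2 of 5 replacement and 2 of 8 replication-dependent genes higher, with medians of 0.11 and 0.37. The reported classes, with H2ax among the replacement genes, were also set with earlier results of these data known. These are descriptions of 2 arrays and of few genes, and the classes were not tested against each other.

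**Figure D1:**
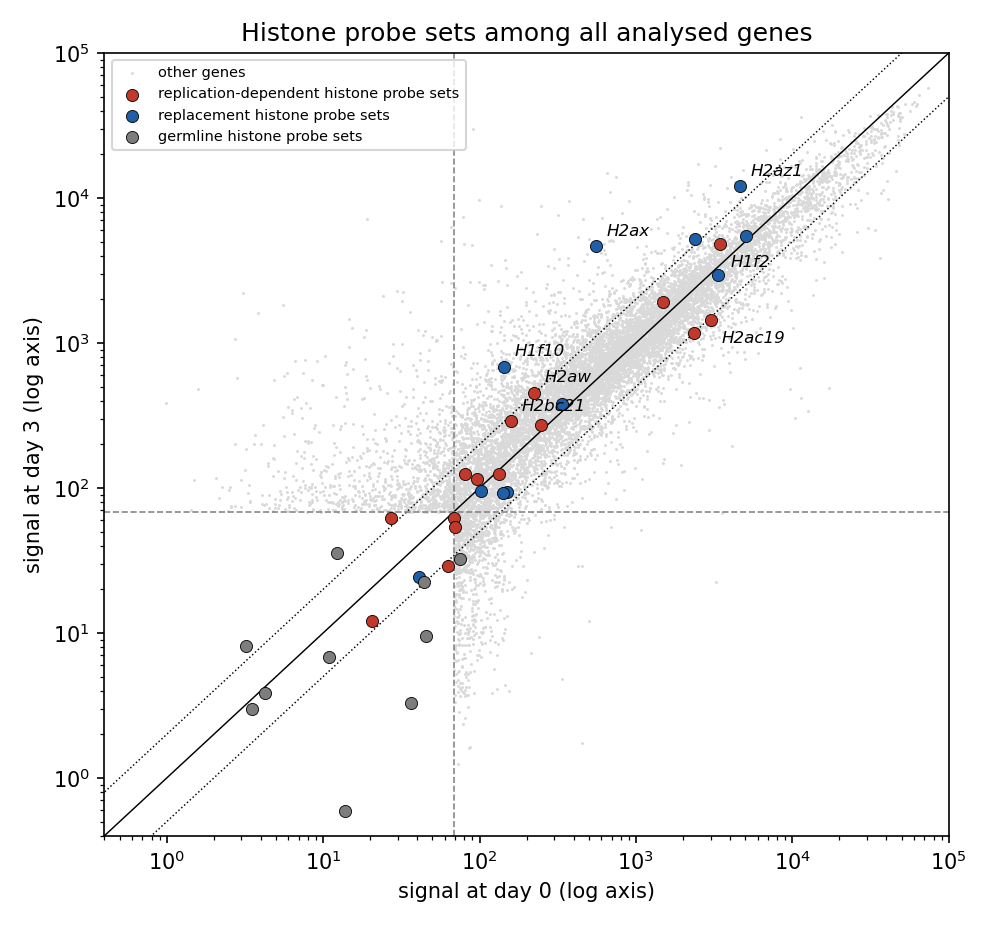
Signal at day 0 (x axis) against day 3 (y axis), both log axes, for the 12634 genes analysed (grey dots) and the 36 histone probe sets (red replication-dependent, blue replacement, grey circles germline). The solid line marks equal signal, dotted lines 2-fold and dashed lines the floor of 68.3. H2ax, H1f10 and H2az1 lie above the upper dotted line, and the H2ac19 probe sets at or just below the lower one.

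Upstream sequences of 6 genes are shown. H2az1 and H1f10 were higher at day 3, and H2ac19 was lower. H2aw and H2bc18 are cluster genes with an octamer, and H1f2 is a cluster gene with a small difference. The sequences are the 250 bases before the RefSeq gene start in GRCm38.p6, 5′ to 3′ on the gene's strand. Of the 25 genes, 22 had an entry in the promoter table. H2ax, H2bc21 and H3c7 had none, so no upstream sequence of H2ax, the gene with the largest ratio, was examined. Capitals mark matches, on either strand, to CCAAT, which binds the factor NF-Y, to TATAAA, to the octamer ATTTGCAT known from H2B promoters, to TTTGAA, the cell cycle homology element, or to the E2F forms TTTGGCGC and TTTCCCGC. None of the motifs contains another.
H2az1, chr3:137864237-137864486, plus strand: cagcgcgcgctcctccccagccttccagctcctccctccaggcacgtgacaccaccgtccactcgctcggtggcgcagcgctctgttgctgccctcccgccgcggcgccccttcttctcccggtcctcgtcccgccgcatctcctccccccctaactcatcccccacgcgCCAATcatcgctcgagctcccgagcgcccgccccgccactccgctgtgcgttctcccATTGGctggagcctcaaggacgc
H1f10, chr6:87981483-87981732, minus strand: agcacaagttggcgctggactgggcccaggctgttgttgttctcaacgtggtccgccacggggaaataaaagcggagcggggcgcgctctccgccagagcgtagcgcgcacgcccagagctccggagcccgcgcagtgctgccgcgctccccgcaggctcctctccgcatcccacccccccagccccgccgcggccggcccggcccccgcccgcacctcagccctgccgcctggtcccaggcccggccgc
H2ac19, chr3:96240375-96240624, minus strand: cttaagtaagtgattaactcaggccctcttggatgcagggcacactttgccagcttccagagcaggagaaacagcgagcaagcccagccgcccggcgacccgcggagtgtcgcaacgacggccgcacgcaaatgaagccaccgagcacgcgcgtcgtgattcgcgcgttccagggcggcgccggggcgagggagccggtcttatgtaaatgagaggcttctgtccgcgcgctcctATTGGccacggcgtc
H2aw, chr11:58954435-58954684, plus strand: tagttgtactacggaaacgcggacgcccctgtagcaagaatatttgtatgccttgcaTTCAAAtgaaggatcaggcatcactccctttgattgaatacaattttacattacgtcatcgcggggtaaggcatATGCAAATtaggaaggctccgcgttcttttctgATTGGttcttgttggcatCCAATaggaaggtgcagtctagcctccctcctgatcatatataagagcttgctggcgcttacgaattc
H2bc18, chr3:96269450-96269699, plus strand: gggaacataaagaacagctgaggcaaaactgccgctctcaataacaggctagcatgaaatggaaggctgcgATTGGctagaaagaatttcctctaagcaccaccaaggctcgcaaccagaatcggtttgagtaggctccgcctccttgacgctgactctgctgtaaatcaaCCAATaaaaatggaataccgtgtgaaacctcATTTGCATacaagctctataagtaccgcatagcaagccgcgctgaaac
H1f2, chr13:23738557-23738806, plus strand: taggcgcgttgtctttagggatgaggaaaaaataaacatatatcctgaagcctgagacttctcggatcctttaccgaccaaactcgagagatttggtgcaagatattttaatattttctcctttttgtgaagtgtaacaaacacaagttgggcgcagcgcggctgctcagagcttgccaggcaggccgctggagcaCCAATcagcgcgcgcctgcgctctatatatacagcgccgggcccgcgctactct

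CCAAT or its complement stood in 8 of 8 replication-dependent promoters in 5 of 6 replacement promoters and in 5 of 8 promoters of germline histones, against 33.8% of all 32851 windows of this length in the table. H1f10 was the replacement gene without a match to any of the motifs. In H2az1 there were 2 CCAAT matches, beginning 80 and 23 bases before the start, and in H1f2 there was 1, beginning 54 bases before it. TATAAA was present in 4 of 8 replication-dependent and 1 of 6 replacement promoters, against 12.4% of all windows. The octamer was found in H2bc18, H2aw and H3f3b, against 1.60% of all windows, and it began 48 bases before the start in H2bc18 and 119 in H2aw. TTTGAA was found in 2 of 8 and 1 of 6 promoters (15.99% of all windows), and the E2F forms in 0 of 22 (1.30%). A match describes these letters only. The promoters of H2az1 (higher), H2ac19 (lower) and H1f2 (a small difference) all held CCAAT, while that of H1f10 (higher) did not. Whether the motif bears on the ratios was not tested.

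H2ax encodes H2A.X, the H2A variant that is phosphorylated around DNA double-strand breaks. Its expression is known to be higher in dividing cells. The signal of its only probe set was 554 at day 0 and 4652 at day 3. The value at day 3 was 8.40-fold that at day 0, and 1.02% of all genes analysed had a higher ratio. Under the 10 other ways of processing that gave it a value, its log2 ratio lay between 3.03 and 3.36. Those that changed only the floor level or the probe set choice could not move it from 3.07. Its only probe set lay above each floor used.

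H2az1 encodes H2A.Z, the variant at nucleosomes that flank transcription starts, and H2az2 encodes a nearly identical protein. The brightest H2az1 probe set had a signal of 4649 at day 0 and 12096 at day 3. Its second probe set, an x_at set whose probes can match other transcripts, went from 2404 to 5208, a 2.17-fold higher value. Both sets went the same way, and their log2 ratios differed by 0.26. The SD of a single probe set's log2 ratio within a gene was 0.44 on these arrays (4380 genes). A further pair of probe sets, for which the annotation lists H2az1 together with a predicted gene, had signals of 7425 and 583 at day 0 and of 17115 and 1309 at day 3. Those sets belong to no single gene by the annotation, and their values at day 3 were 2.31-fold and 2.25-fold those at day 0.

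H2az2 was close to level on both of its probe sets. The brighter set gave 5069 at day 0 and 5487 at day 3. The dimmer set gave 334 and 381, and the ratios were 1.08 and 1.14. The paralogs that encode H2A.Z proteins thus had unlike ratios, with log2 values of 1.38 for H2az1 and 0.11 for H2az2.

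H1f10 encodes H1.10, also called H1x, a linker histone made outside S phase as well. Its only probe set had a signal of 143 at day 0 and 685 at day 3, a 4.79-fold higher value that was exceeded by 2.52% of all genes. The day 0 signal was dim, not far above the floor. The log2 ratio was 0.69 in place of 2.26 under a 75th percentile floor, which lies above the day 0 signal.

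H2aj encodes H2A.J, an H2A variant from a gene outside the clusters whose protein accumulates in senescent cells. Its brightest probe set went from 3336 at day 0 to 2962 at day 3. The other sets went from 151 to 94.2 and from 141 to 92.9, with log2 ratios of −0.68 and −0.60 against −0.17 for the brightest. All 3 were lower at day 3, by under 2-fold, but with scaling to the hybridisation spikes the brightest set had a log2 ratio of 0.12.

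H3f3a and H3f3b both encode the replacement histone H3.3, which is placed at active genes and at telomeric and pericentric repeats. The probe set that names H3f3a alone had signals of 103 at day 0 and 95.8 at day 3. That of H3f3b alone was under the floor on both arrays, at 41.2 and 24.3. A further 5 probe sets list both genes together with near-identical copies and belong to no single gene. Their signals ran from 4849 to 12515 at day 0 and from 5851 to 11932 at day 3, with ratios from 0.953 to 1.28. Of the 6 H3.3 probe sets above the floor, 0 differed by 2-fold.

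**Figure D2:**
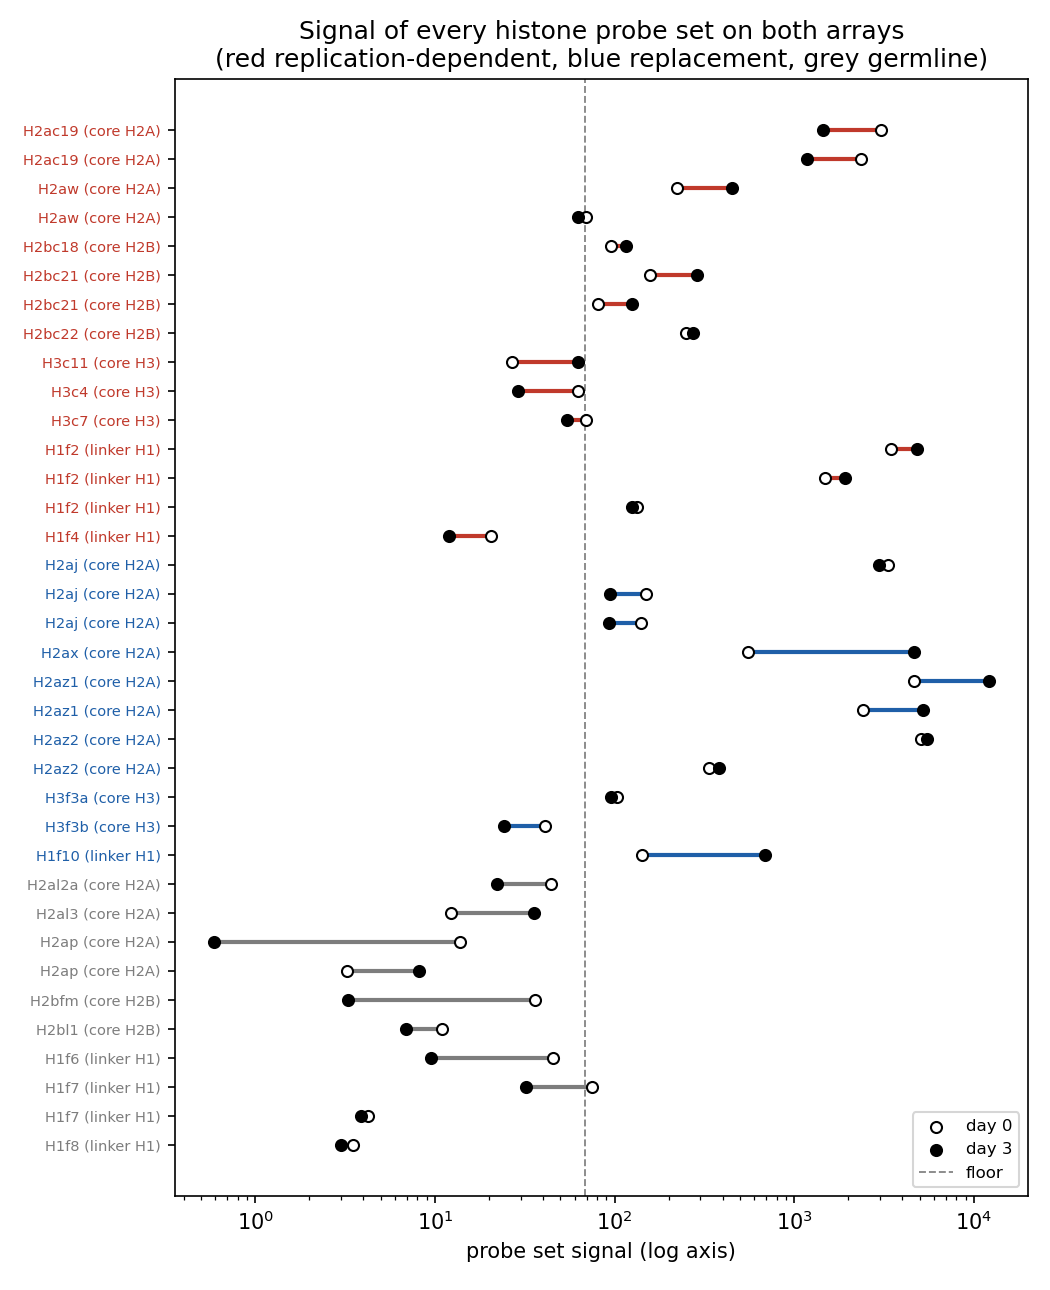
Signal (x axis, log) at day 0 (open circles) and day 3 (filled circles) for each of the 36 histone probe sets, 1 per line, with the gene and the kind of histone at the left (red replication-dependent, blue replacement, grey germline) and the floor of 68.3 as a dashed line. The longest lines above the floor are those of H2ax (554 to 4652) and H1f10 (143 to 685), and both H2ac19 sets (3042 to 1441 and 2358 to 1180) are shifted to the left.

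Among the replication-dependent genes, H2ac19 stood apart. It encodes a canonical H2A from the cluster on chromosome 3, close to a near-identical copy. One of its probe sets, an x_at set, went from 3042 at day 0 to 1441 at day 3. The other went from 2358 to 1180, with a log2 ratio of −0.999 beside −1.08. Both sets were thus lower by close to 2-fold, at the edge of the threshold, and 4.61% of all genes had a lower ratio. A further probe set, which lists H2ac19 with its copy, H2ac18, went from 117 to 71.9. With scaling to the hybridisation spikes the log2 ratio of H2ac19 was −0.79, short of 2-fold.

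H2aw, a canonical H2A gene on chromosome 11, was the replication-dependent gene at least 2-fold higher. The s_at probe set behind this value, whose probes are shared between transcripts, went from 223 at day 0 to 453 at day 3. Its other probe set lay close to the floor, with 69.0 at day 0 and 62.4 at day 3. Its value at day 3 was under the floor, so this set gives no direction and the 2-fold value rests on the s_at set alone. A set listing H2aw with Trim17, whose gene overlaps it in RefSeq, gave 397 and 451. Signal of H2aw and Trim17 cannot be told apart there. The log2 ratio of H2aw was 1.02 on the s_at set and −0.016 without probe sets of that kind.

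The H2B genes H2bc21, H2bc18 and H2bc22 were all higher at day 3 by under 2-fold. H2bc21, from the cluster on chromosome 3 and known to give also polyadenylated RNA in non-dividing cells, went from 158 to 289 on its brighter probe set. On its other set the signals were 80.8 and 125, and the ratios were 1.83 and 1.55. H2bc18 had signals of 96.1 and 115. H2bc22, on an x_at probe set, had 249 and 272. The log2 ratios of H2bc18 and H2bc22 (0.26 and 0.13) were smaller than the SD of 0.44 between probe sets of a gene. That of H2bc22 changed sign, to −0.14 after quantile normalisation and to −0.058 after loess.

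H1f2 and H1f4 encode the cluster linker histones H1.2 and H1.4. The main H1f2 probe set went from 3465 at day 0 to 4797 at day 3, and its second from 1486 to 1926. Its dimmest set went slightly the other way, from 133 to 124. The ratios were 1.38, 1.30 and 0.937, so that the brighter sets were higher at day 3 by less than 1.5-fold. H1f4 had signals of 20.5 and 12.0, both under the floor.

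The H3 cluster genes with a probe set of their own were at or under the floor. H3c7 had a signal of 69.4 at day 0 and 54.2 at day 3. H3c4 had signals of 62.8 and 29.1 and H3c11 of 27.0 and 62.3. No fold is given for H3c4 and H3c11, since values under the floor have no order, and no H4 gene had a probe set with 1 symbol.

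The germline histones serve as a background, since liver is not known to use them. Their 10 probe sets had signals from 3.23 to 74.6 at day 0 and from 0.590 to 35.6 at day 3. Only 1 of the 20 values was above the floor, that of H1f7, a spermatid linker histone, at day 0. H1f6 (testis H1t) was at 45.7 and 9.48 and H1f8 (oocyte H1) at 3.49 and 3.01. The signals of H3c4, H3c7, H3c11, H1f4 and H3f3b lay within this background range at day 0. At day 3, H3c7 (54.2) and H3c11 (62.3) lay above the range, though under the floor, and the others within it.

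A further 27 probe sets listed several symbols of which at least 1 matched the rule, and they belong to no single gene. They are given here because most H3 and all H4 sequence on the array is read through them. Of the 20 above the floor on an array, 3 were at least 2-fold higher and 0 were lower, against 10.8% and 5.9% of all probe sets above the floor. The exception among the core families was an H2A probe set that lists 10 cluster genes, with a signal of 233 at day 0 and 2002 at day 3, an 8.58-fold higher value. The other 2 were the H2A.Z sets described above.

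The H2B, H3 and H4 probe sets of this kind showed small differences. The brightest H2B set, listing 11 symbols, had signals of 9395 and 8991, and another listing 3 symbols had 5742 and 6821. The H3 sets above the floor had ratios from 0.679 to 1.41, the lowest on a set with 496 at day 0 and 337 at day 3. The brightest H4 set had signals of 586 and 750. Thus 0 of 3 H2B, 0 of 4 H3 and 0 of 3 H4 sets above the floor differed by 2-fold, while 1 of 3 H2A sets did.

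**Figure D3:**
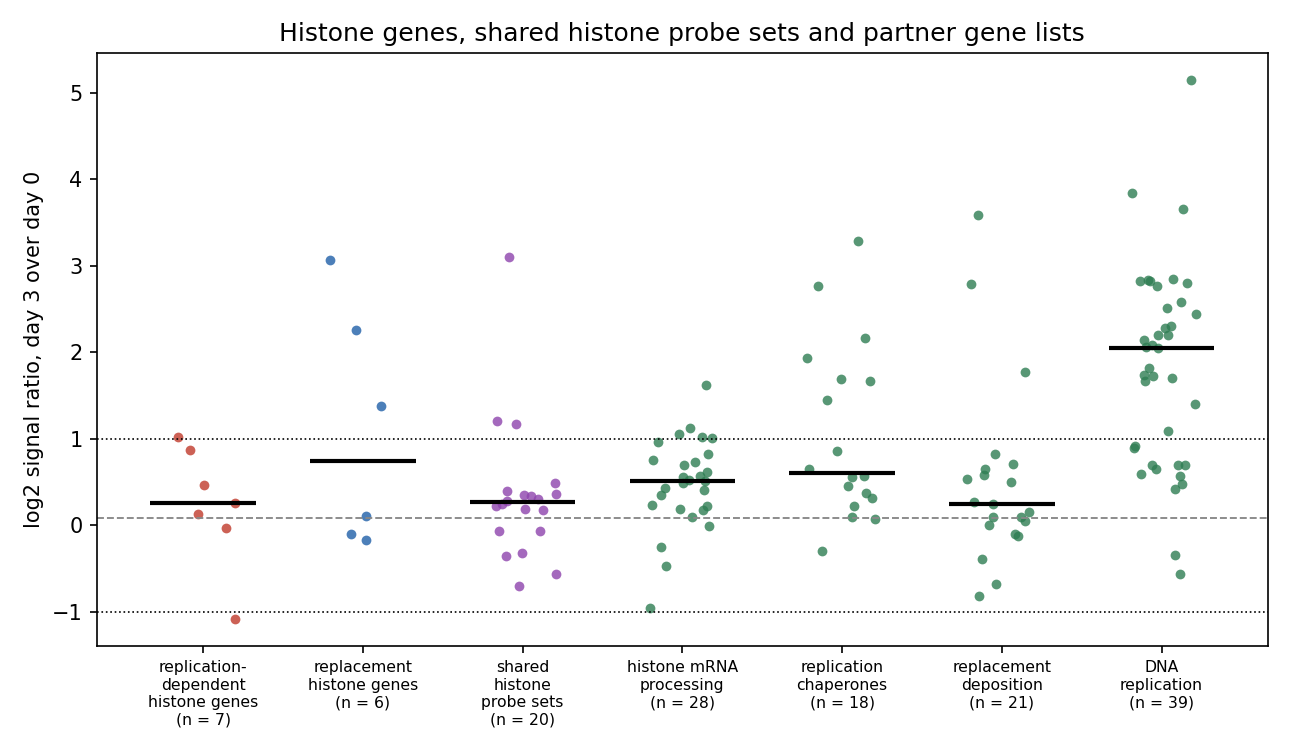
Log2 signal ratio of day 3 over day 0 (y axis) for histone genes by class, for the shared histone probe sets above the floor, and for genes of 4 partner lists. Each dot is a gene (or a shared probe set), black bars are medians, dotted lines mark 2-fold and the dashed line the median of all genes (0.08). The histone medians lie at 0.26 (replication-dependent), 0.75 (replacement) and 0.27 (shared probe sets).

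The genes that serve histones were set beside them through 4 lists. The DNA replication list had 39 analysed genes, of which 27 were higher by 2-fold or more and 0 lower, and its median log2 ratio was 2.05. Of 18 histone chaperones of replication, 7 were higher and 0 lower (median 0.61). Of 28 genes of histone mRNA processing, 5 were higher and 0 lower (median 0.52). Of 21 genes of replacement histone deposition, 3 were higher and 0 lower (median 0.25). The shares higher were thus 69.2%, 38.9%, 17.9% and 14.3%, beside 12.9% of all genes, and those of the processing and deposition lists lay near that background. All 4 lists were written with earlier results of these data known, and the replication list holds genes already known to be higher in them. Their shares and medians are therefore no independent evidence. Mcm2 is in both the replication and the chaperone list.

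Of the histone mRNA processing genes, 23 of 28 differed by under 2-fold. Slbp, which encodes the protein that binds the histone stem-loop, went from 893 to 1810 (2.03-fold). Npat, the coactivator of histone transcription at S phase, went from 105 to 230 (2.19-fold), while its other probe set went from 76.3 to under the floor. Casp8ap2, which encodes FLASH, a part of the histone 3′ end complex, went from 291 to 585 (2.01-fold). The largest ratio of the list was that of Cstf3, a cleavage stimulation factor that also serves poly(A) sites, with 750 and 2304 (3.07-fold). Zfp473, which binds the stem-loop complex, was at least 2.08-fold higher, from under the floor to 142. Lsm10, a U7 snRNP protein gene, went the other way, from 1279 to 660, by under 2-fold.

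Among replication chaperones, Asf1b, which hands H3 and H4 to the assembly factor CAF-1, had signals of 144 and 1410 (9.78-fold). Its paralog Asf1a had 1330 and 1419. Chaf1b, a CAF-1 subunit, went from 99.2 to 378 (3.81-fold). Mcm2, a helicase subunit that also binds H3 and H4, was 6.82-fold higher, and Dnajc9, a co-chaperone of H3 and H4, was 4.51-fold higher. The other 3 past 2-fold lay between 2.73-fold and 3.24-fold. Nasp, which holds the soluble pool of H3 and H4, had 816 and 1055, under 2-fold. The CAF-1 subunit gene Rbbp4 was likewise under 2-fold on its brightest probe set, with 7201 and 5867. Its other sets above the floor went from 3612 to 2458 and from 664 to 240, the last 2.77-fold lower. On the brightest sets, genes of H3 and H4 supply and assembly were found on both sides of the threshold.

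In the deposition list, the genes at least 2-fold higher were Cenpa, the centromeric H3 variant, which the symbol rule does not include, and the genes of its loading, Mis18a and Oip5. Cenpa had signals of 199 and 2378 (12.0-fold), Mis18a of 163 and 1130 (6.94-fold), and Oip5 went from under the floor to 233 (at least 3.41-fold). The H3.3 chaperone genes Hira, Daxx and Atrx had ratios under 2-fold, with 137 and 154, 669 and 510, and 1844 and 1908. For H2A.Z, the remover Anp32e had 1207 and 2145, and the loader subunit Vps72 had 512 and 292, both under 2-fold.

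Processing of the values touched the members unequally. H2ax and H2az1 were at least 2-fold higher under all 10 alternatives that gave them a value, and H1f10 under 9 of 10. Not every alternative could change every gene: another floor does not alter a probe set above it on both arrays. H2ac19 was at least 2-fold lower under 8 of 10 and H2aw at least 2-fold higher under 4 of 10. H2bc21 reached 2-fold with scaling to the hybridisation spikes, a setting under which the median over all genes was 0.36 in place of 0.08.

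**Figure D4:**
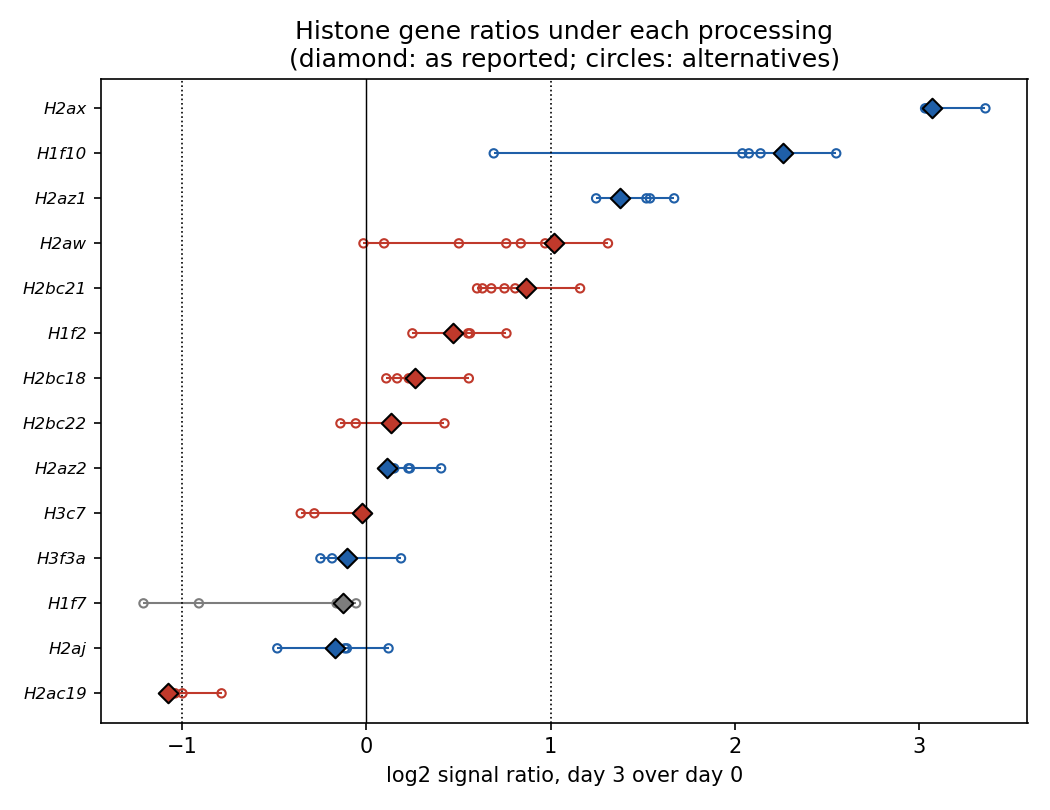
Log2 signal ratio of day 3 over day 0 (x axis) of the 14 histone genes above the floor, as reported (diamonds) and under the alternative scalings, floors and probe set choices (circles, joined by a line), coloured red for replication-dependent, blue for replacement and grey for germline. H2ax stays between 3.03 and 3.36, whereas H2aw runs from −0.016 to 1.31 and H1f10 from 0.69 to 2.55.

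The arrays differed in other respects, whose part in the histone ratios was not tested. Poly-A spikes are control RNAs that go through the labelling. Their 3′ to 5′ signal ratio was larger on the day 3 array in 8 of 8 pairs, by a median of 2.13 times. The pairs read the dap, lys, phe and thr spikes, each through more than 1 version of its probe sets, so they are not independent. The median log2 ratio was −1.20 for the 5′ ends and −0.12 for the 3′ ends. Hepatocyte markers, high on both arrays, were at least 2-fold different in 0 of 9. Macrophage markers were higher in 5 of 8 (summed signal 7618 and 20023), stellate cell markers in 4 of 6 (4540 and 13364), cholangiocyte markers in 3 of 5 and neutrophil markers in 2 of 4 above the floor, and endothelial markers in 0 of 6 (7008 and 5255). Erythroid markers were higher in 1 and lower in 2 of 5, and B cell markers were under 2-fold in 4 of 4 above the floor. Of 6 T and NK cell markers with a probe set, 5 were under the floor on both arrays. In whole tissue, more cells of a type and more RNA per cell cannot be told apart.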

How the data were processed

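The deposited values are 1 intensity per probe set and array on a linear scale, which the authors made with GCOS and its MAS5 method according to the submitters' processing notes. Their versions, the scaling target and the genome build are not stated there. MAS5 subtracts mismatch signal, so low values are noisy. Both arrays were used as deposited. Members, classes and lists were chosen with earlier results of these data known. Probe sets were named through the supplied array annotation, whose 25 member genes all matched the RefSeq table by gene ID with 0 symbols changed. Log2 was taken after the floor of 68.3. The SD between probe sets was that of the difference between the brightest 2 of each gene, divided by the square root of 2. Every histone gene is named or counted. From each list, apart from DNA replication, the rule allowed up to 4 highest and 3 lowest genes past 2-fold, plus fixed chaperone and processing genes; other names were added after their values were seen. Of the fixed genes, Chaf1a and Hjurp had no probe set with 1 symbol. Promoter sequences came from RefSeq. The functions were tested on simulated data. Alternatives covered scaling, floor, probe set choice and threshold (Python 3.11.15, numpy 2.4.6, pandas 2.3.3, statsmodels 0.14.6). The number of arrays limits the precision, so no p-value is given.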

Additional observations from a re-analysis of the deposited data

Results flagged for a closer look

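Among the probe sets that list several symbols, which enter no count of histone genes, 3 had a signal at day 3 at least 2-fold above the control array at day 0. The H2A set listing 10 cluster genes was 8.58-fold higher, and the H2A.Z sets that also list a predicted gene were 2.31-fold and 2.25-fold higher. With 1 array per day these differences have no replicate.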

How the results depend on the processing

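With 1 array per day no sample could be left out. No paired analysis was possible because each day has 1 array. The count of replication-dependent genes at least 2-fold higher, 1 as reported, was 0 after quantile normalisation, after loess, under a 75th percentile floor, with no floor and 16 added, with the mean over probe sets, without s_at and x_at probe sets and at 4-fold. Only 3 of these genes were left under the 75th percentile floor. The count was 2 of 6 with hybridisation spike scaling, 2 of 10 under a 25th percentile floor and 2 of 7 at 1.5-fold. Over all genes, 19.6%, 14.7% and 24.0% were higher under these settings. The count of those at least 2-fold lower, 1 as reported, was 0 with spike scaling, without s_at and x_at sets and at 4-fold. It was 2 of 10 under a 25th percentile floor, where 11.2% of all genes were lower. The count of replacement genes at least 2-fold higher, 3 as reported, was 2 of 5 under a 75th percentile floor and 2 of 6 at 4-fold. Over all genes, 7.47% and 3.27% were higher under these settings. The median log2 ratio of replacement genes, 0.75, was 0.11 under a 25th percentile floor and 0.11 with no floor and 16 added, settings that also admit H3f3b. With H2ax counted as replication-dependent, chosen after seeing the data, that median was 0.11. Then 2 of 5 replacement and 2 of 8 replication-dependent genes were higher. The log2 ratio of H2aw, 1.02, was −0.016 without s_at and x_at sets, where only its dim probe set is left. The other causes were not tested. Over all genes the number at least 2-fold lower, 710, was 380 with spike scaling, 1834 and 406 under the 25th and 75th percentile floors and 1770 with no floor, and the number higher, 1625, was 574 under the 75th percentile floor. Of 74 comparisons of class counts and medians with their reported value, 56 moved by at most 1.5 times (counts) or under the SD between probe sets (medians). Of 128 single-gene ratios, 122 moved by under that SD. Some of these could not move, such as that of H2ax under another floor. Signal near the floor, as for the H3 genes, limits what can be said of dim probe sets.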
